A study of Homo sapiens with 12 samples.

Results

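The 10 genes described here encode enzymes that act on quinones, carbonyls, epoxides, esters and other foreign or reactive compounds: NQO1, CBR1, CBR3, PTGR1, EPHX1, CES1, CYP4F11, CYP4F3, UGDH and HPD. They were chosen by symbol, with their lower measured level in shNRF2 than in shNC cells in view, and are 10 of the 61510 genes of the deposited table; all 10 passed the filter on low counts. The difference between the hairpin lines is therefore given as a description, with no test. The response to the drug was tested in the fit over all genes, with the reservation that its results were known too when the genes were chosen.

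The cells were A549/DDP, made from the lung adenocarcinoma line A549 and resistant to cisplatin, and every group was grown with 1 µg/ml cisplatin (DDP) in the medium. Of 2 lines, shNC held a control hairpin RNA and shNRF2 a hairpin RNA that targets NRF2. At 70% confluence each line received solvent (DMSO) or gambogenic acid (GNA) at 4 µM, a caged xanthone of gamboge resin, for 24 h, and total RNA was sequenced in 3 libraries for each of the 4 groups. Whether a hairpin line was a clone or a pool, which hairpin sequence it carried, and whether the 3 libraries came from separate cultures: none of this is given in the sources used here, so p-values reflect only how far these libraries vary, which may be technical. The lines differ in the hairpin and in whatever else differs between cell lines made separately, and these cannot be told apart.

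NRF2, encoded by NFE2L2, is a transcription factor that is held in the cytoplasm and sent to degradation by KEAP1 until electrophiles or oxidants modify KEAP1. It then pairs with a small MAF protein in the nucleus and binds antioxidant response elements near genes of detoxification. A549 cells are known for NRF2 that is active without added stress. The enzymes above work at different steps. NQO1 turns quinones into hydroquinones, and the carbonyl reductases reduce carbonyls to alcohols. PTGR1 reduces the double bond of reactive enals, EPHX1 opens epoxides with water, and CES1 cuts esters. The CYP4F enzymes hydroxylate fatty acids and eicosanoids at the tail end. UGDH makes the sugar acid for glucuronide conjugation, and HPD takes part in tyrosine breakdown.

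Library totals ran from 12848607 to 17192671 counts. Of the 15653 genes tested, 30.7% were called for GNA in shNC, 33.7% for GNA in shNRF2, 35.2% for the hairpin in DMSO, 26.1% for the hairpin in GNA and 6.82% for the difference between the 2 GNA responses. The test was edgeR's quasi-likelihood test, with a call at an adjusted p (Benjamini-Hochberg) under 0.05. Library shNC DMSO 1 stood apart most: its chi-square per degree of freedom against the other 2 was 8.02 and 6.30, and theirs against each other 3.73. To a lesser degree, shNC GNA 1 had 4.13 and 5.29, beside 2.81 between the other 2. Library shNRF2 DMSO 3 had 5.30 and 3.58, beside 2.84. NFE2L2 checked the hairpin: with DMSO it had 77.9 ± 3.60 CPM in shNC and 50.2 ± 2.80 in shNRF2, and with GNA 87.4 ± 3.85 and 45.8 ± 2.00 (counts scaled to a fixed library total, mean ± SD, n = 3). The epithelial keratins KRT7, KRT8 and KRT18 were high in every library, and KRT19 was at 0.153 CPM or less. CDH1 ran from 31.1 to 71.2 CPM over all libraries and EPCAM from 1.99 to 3.60 CPM. Of 7 alveolar type 2 markers 1, LAMP3, passed 1 CPM in any library (highest 11.5), and the surfactant gene SFTPC stayed at 0.246 CPM or less. The sum of the 7 was higher with GNA in both lines, at 1.72 to 2.76 CPM with DMSO and 4.13 to 5.34 with GNA in shNC, and 2.07 to 3.73 and 10.5 to 11.7 in shNRF2. LAMP3 (1.10 CPM or more in every library) was the largest part of it, and each of the other markers stayed at 0.4135 CPM or less. The sum therefore does not show the direction of those others. Its part in the results on GNA was not tested. Summed fibroblast markers (5, with COL1A1 highest at up to 7.98 CPM) lay between 7.21 and 9.70 CPM, with overlapping ranges in the 4 groups. Summed leukocyte markers lay between 0.0642 and 0.739 CPM and summed endothelial markers between 0.0616 and 0.675 CPM.

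In the RefSeq promoter windows, 12 windows of 300 bases for 8 of the 10 genes, the core of the antioxidant response element (TGACNNNGC, either strand) was found in 5 of 12, against 13.35% of all 35116 windows. Both HPD windows are among these 5, so the windows do not stand for separate genes. The looser form TGANNNNGC, which contains the core, was in 7 of 12 against 41.84%, and the AP-1 site TGANTCA, which can overlap either, in 3 of 12 against 7.709%. A window reaches from 250 bases before a transcript start to 50 bases from it on. CBR3 and CES1 had no window. The stretches below are those upstream of a start that hold a core match in CBR1, EPHX1, CYP4F11 and HPD, and the AP-1 match of CYP4F3. Capitals mark the match, the rest is the bases beside it, and each is read 5′ to 3′ along the gene (RefSeq, GRCh38.p14). In CBR1, CYP4F11 and the distal HPD match the core is on the other strand, so the capitals show its reverse complement.
CBR1: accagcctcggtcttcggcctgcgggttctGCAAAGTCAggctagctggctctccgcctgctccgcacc
EPHX1: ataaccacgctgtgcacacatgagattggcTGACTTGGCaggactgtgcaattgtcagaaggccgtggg
CYP4F11: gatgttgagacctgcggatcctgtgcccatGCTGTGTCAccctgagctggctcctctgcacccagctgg
HPD distal: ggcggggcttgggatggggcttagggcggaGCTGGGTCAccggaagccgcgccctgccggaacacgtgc
HPD proximal: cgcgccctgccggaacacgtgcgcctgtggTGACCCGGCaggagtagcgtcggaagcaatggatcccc
CYP4F3: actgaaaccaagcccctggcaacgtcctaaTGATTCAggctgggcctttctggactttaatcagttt

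The match began 159 bases upstream of the start in CBR1 (chr21:36069835-36069903, plus strand), inside the opposite-strand gene SETD4. All 69 bases of that stretch also lie in an exon of AP000688.1, on the opposite strand too. In EPHX1 it began 78 bases upstream of the second of 3 starts (chr1:225825246-225825314, plus strand), within the gene as GENCODE 29 draws it. The CYP4F11 stretch (chr19:15934985-15935053, minus strand) lay outside any annotated gene, with the match 156 bases before the first of 2 starts. Both HPD matches, 85 and 38 bases upstream of the first of 2 starts, lay outside annotated genes too (chr12:121888658-121888726 and chr12:121888612-121888679, minus strand). That first start itself lies upstream of the HPD gene as GENCODE 29 draws it, whose 5′ end is at 121863596. The second HPD start had a further core match, 213 bases upstream. CYP4F3 had its AP-1 match 165 bases upstream of the start (chr19:15641117-15641183, plus strand), in an intron of a longer transcript, and the second CYP4F11 start had the same 7 letters 137 bases upstream. The first HPD start had an AP-1 match as well, 42 bases past the start. A link of these matches to the GNA responses was not tested. In these windows NQO1 and UGDH had only a loose match, and PTGR1 none. Bases farther upstream were not searched. A match is a description of the letters in these windows, and factor binding was not measured.

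**Figure D1:**
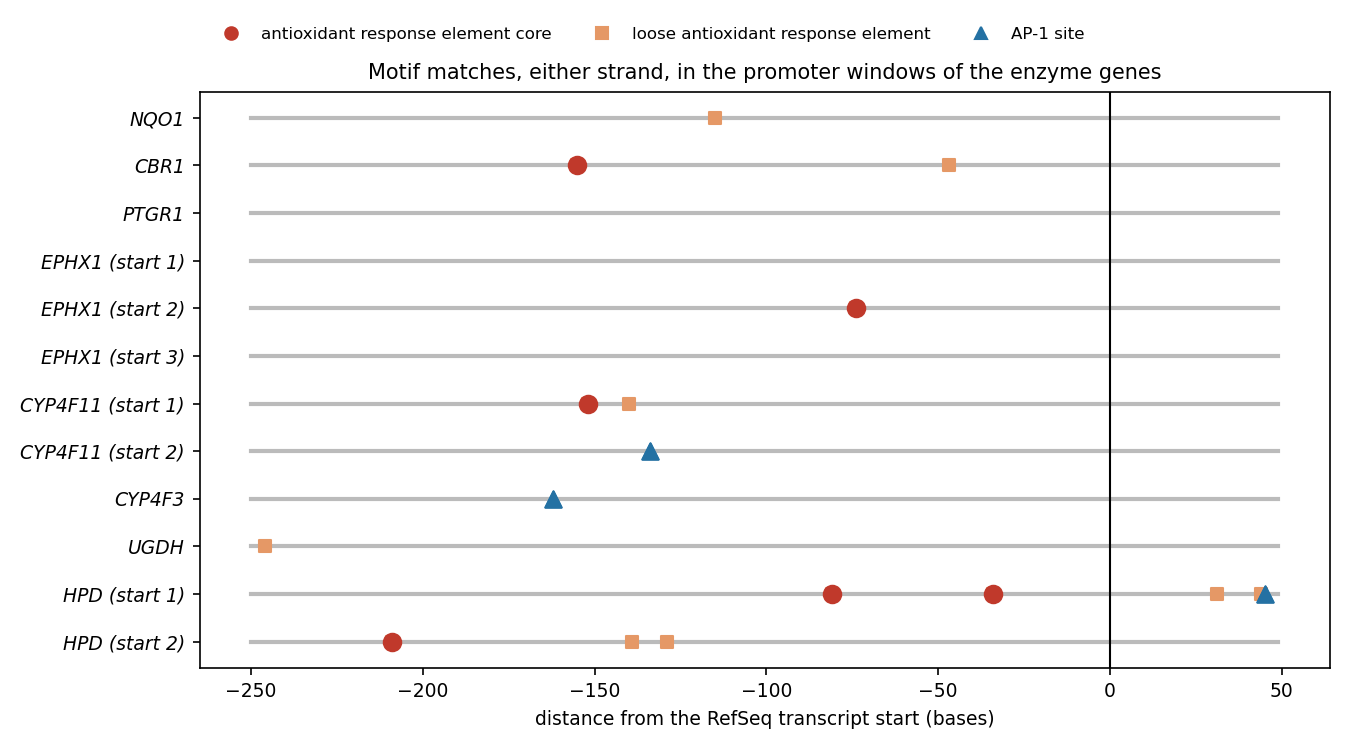
Matches to the 3 motifs in each of the 12 promoter windows, by distance in bases from the RefSeq transcript start (x axis); each row is a window, and the vertical line is the start. Core matches sit upstream of CBR1, EPHX1 (second start), CYP4F11 (first start) and both HPD starts.

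NQO1 is the 2-electron quinone reductase, which turns quinones into hydroquinones without the radical step, and it is among the best known NRF2 targets. The gene lies on chromosome 16 at 69706996 to 69726951 (GRCh38, minus strand, ENSG00000181019). In library order, it stood at 679, 732 and 732 CPM in shNC with DMSO and 637, 582 and 599 with GNA. The hairpin line had 448, 470.1 and 486 CPM in DMSO and 346, 345 and 334 in GNA. The 4 groups did not overlap at any step, with shNC DMSO highest and shNRF2 GNA lowest. NQO1 fell with GNA in both lines, with a fold change of -0.24 ± 0.047 (log2, edgeR adjusted p = 3.1e-04) in shNC and of -0.45 ± 0.048 (log2, edgeR adjusted p = 2.0e-08) in shNRF2. The difference between these responses was -0.22 ± 0.067 (log2, 95% interval -0.37 to -0.061, edgeR adjusted p = 0.051), which missed the threshold. Under 8 of the 20 other settings tried, among them DESeq2 (adjusted p = 0.029), the same difference was called. The hairpin line held 65.5% of the control level in DMSO and 56.4% in GNA. In bulk RNA, fewer cells with a transcript and less of it per cell cannot be told apart, here and for every gene that follows.

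**Figure D2:**
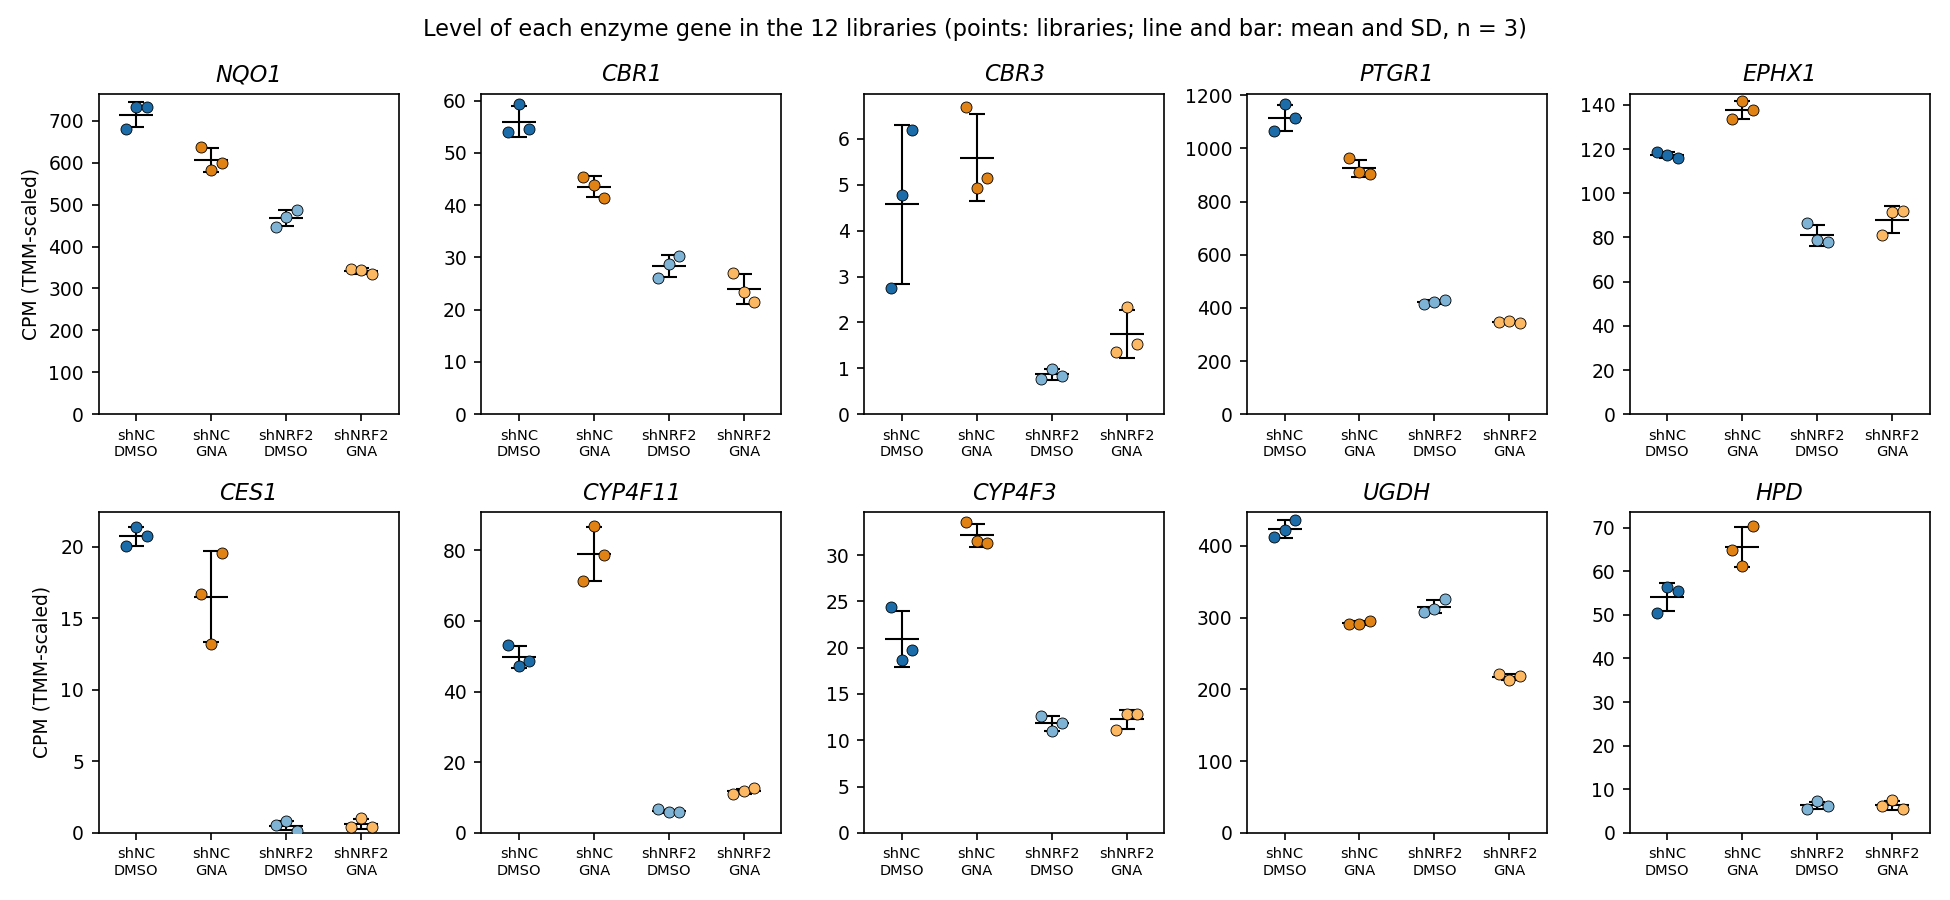
CPM of the 10 genes (y axis, from 0, a scale per gene) in the 4 groups (x axis); points are libraries, the line and bar are mean and SD of 3. In all 10 panels the 3 shNRF2 libraries of a treatment lie below the 3 shNC libraries of that treatment.

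CBR1 and CBR3 encode cytosolic carbonyl reductases that lie next to each other on chromosome 21, CBR1 at 36069941 to 36073166 and CBR3 at 36134912 to 36146566, both on the plus strand and 61745 bases apart. CBR1 reduces many quinones, prostaglandins and drug carbonyls, and CBR3 has a narrower activity. In shNC, CBR1 measured 54.0, 59.4 and 54.6 CPM with DMSO and 45.4, 43.8 and 41.4 with GNA, and in shNRF2 26.0, 28.7 and 30.3 and 27.0, 23.4 and 21.5. It fell with GNA in both lines, with -0.36 ± 0.078 (log2, edgeR adjusted p = 6.4e-04) in shNC and -0.24 ± 0.087 (log2, edgeR adjusted p = 0.031) in shNRF2, where the libraries of the 2 treatments overlapped. The second call was lost with library totals as the scale (adjusted p = 0.11), with limma on FPKM, and when shNRF2 DMSO replicate 2 or 3 or GNA replicate 2 or 3 of that line was left out. SETD4, on the opposite strand across CBR1, had 10.3 to 19.5 CPM. The sources used here do not give whether counting used strand, so a part of the CBR1 counts could come from it.

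CBR3 was the scarcer of the pair, at 40, 78 and 94 counts with DMSO and 93, 80 and 84 with GNA in shNC, and 12, 13 and 11 and 18, 37 and 25 in shNRF2. As CPM these were 2.76, 4.78 and 6.20, then 6.69, 4.93 and 5.16, then 0.771, 0.995 and 0.843, then 1.36, 2.34 and 1.54. Its shNC groups overlapped with each other, and its shNRF2 groups did not. CBR3 rose with GNA in shNRF2 by 1.02 ± 0.36 (log2, edgeR adjusted p = 0.028); in shNC the value was 0.28 ± 0.23 (log2, edgeR adjusted p = 0.40) and not called. The difference of the 2 was 0.74 ± 0.43 (log2, 95% interval -0.24 to 1.72, edgeR adjusted p = 0.35), not called, with an interval that includes both no difference and a large one. The call in shNRF2 rests on few counts and was lost without shNRF2 DMSO replicate 1 (adjusted p = 0.092) or 3 (0.068) and without shNRF2 GNA replicate 2 (0.17). CBR3 kept 19.0% of the shNC level in DMSO and 31.2% in GNA, and CBR1 kept 50.6% and 55.0%.

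PTGR1, prostaglandin reductase 1, reduces the double bond of leukotriene and prostaglandin metabolites and of lipid aldehydes such as 4-hydroxynonenal. It lies on chromosome 9 at 111549722 to 111599893, minus strand. The shNC libraries had 1067, 1166 and 1113 CPM with DMSO and 963, 910.4 and 904 with GNA, while those of shNRF2 had 415, 423 and 430.0 with DMSO and 349, 351 and 344 with GNA. The groups were fully separate, in the same order as for NQO1. PTGR1 fell with GNA, with -0.27 ± 0.044 (log2, edgeR adjusted p = 2.7e-05) in shNC and -0.28 ± 0.045 (log2, edgeR adjusted p = 1.4e-05) in shNRF2, and the difference, -0.013 ± 0.063 (log2, 95% interval -0.16 to 0.13, edgeR adjusted p = 0.94), was not called. The line with the hairpin kept 37.9% in DMSO and 37.6% in GNA. Per length, PTGR1 was the most abundant of the 10 transcripts in shNC DMSO (282 ± 10.9 FPKM, mean ± SD, n = 3) ahead of NQO1 (229 ± 8.10). In shNRF2 DMSO the order of these 2 was reversed, with NQO1 at 156 ± 6.44 FPKM and PTGR1 at 111 ± 1.94, and no library overlapped in either group.

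EPHX1 encodes microsomal epoxide hydrolase, which turns epoxides of aromatic compounds into diols, on chromosome 1 at 225810092 to 225845563, plus strand. With DMSO it measured 119, 117 and 116 CPM in shNC and 86.6, 78.9 and 77.8 in shNRF2, and with GNA 134, 142 and 138 and 81.0, 91.4 and 92.0. EPHX1 rose with GNA in shNC by 0.23 ± 0.057 (log2, edgeR adjusted p = 0.0027), with no overlap between libraries. In shNRF2 the value was 0.12 ± 0.06 (log2, edgeR adjusted p = 0.13), with overlapping libraries and no call; with library totals as the scale it was called (adjusted p = 0.017), as it was with limma on FPKM and when replicate 1 of either shNRF2 group was left out. The responses differed by -0.11 ± 0.083 (log2, 95% interval -0.30 to 0.08, edgeR adjusted p = 0.51), which was not called. The hairpin line kept 69.1% and 64.0% of the control level in DMSO and GNA, the smallest loss among the 10 after UGDH. TMEM63A, which overlaps EPHX1 on the opposite strand, had 15.4 to 22.7 CPM.

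CES1 is the liver-type carboxylesterase that cuts esters of drugs and lipids, on chromosome 16 at 55802851 to 55833337, minus strand. In shNC it had 291, 348 and 314 counts with DMSO and 232, 214 and 319 with GNA, but in shNRF2 8, 11 and 2 and 5, 16 and 7. In CPM the control line had 20.1, 21.3 and 20.7 in DMSO and 16.7, 13.2 and 19.6 in GNA, and the hairpin line 0.514, 0.842 and 0.153 and 0.377, 1.01 and 0.431. No other of the 10 genes lost so large a share: 2.43% of the control level was left in DMSO and 3.68% in GNA, log2 differences of -5.34 ± 0.26 and -4.72 ± 0.25. With GNA the CES1 values were -0.33 ± 0.15 (log2, edgeR adjusted p = 0.10) in shNC and 0.29 ± 0.48 (log2, edgeR adjusted p = 0.69) in shNRF2, neither called. The first was called without shNC GNA replicate 3 (adjusted p = 0.045) and when only the 2 groups were fitted (0.038). Of all 50-base stretches of CES1 transcripts, 29.8% also occur in another gene, most of them in the pseudogene CES1P1 (29.5%), which stood at 0.362 CPM or less as a group mean. Reads could therefore be split between these 2.

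**Figure D3:**
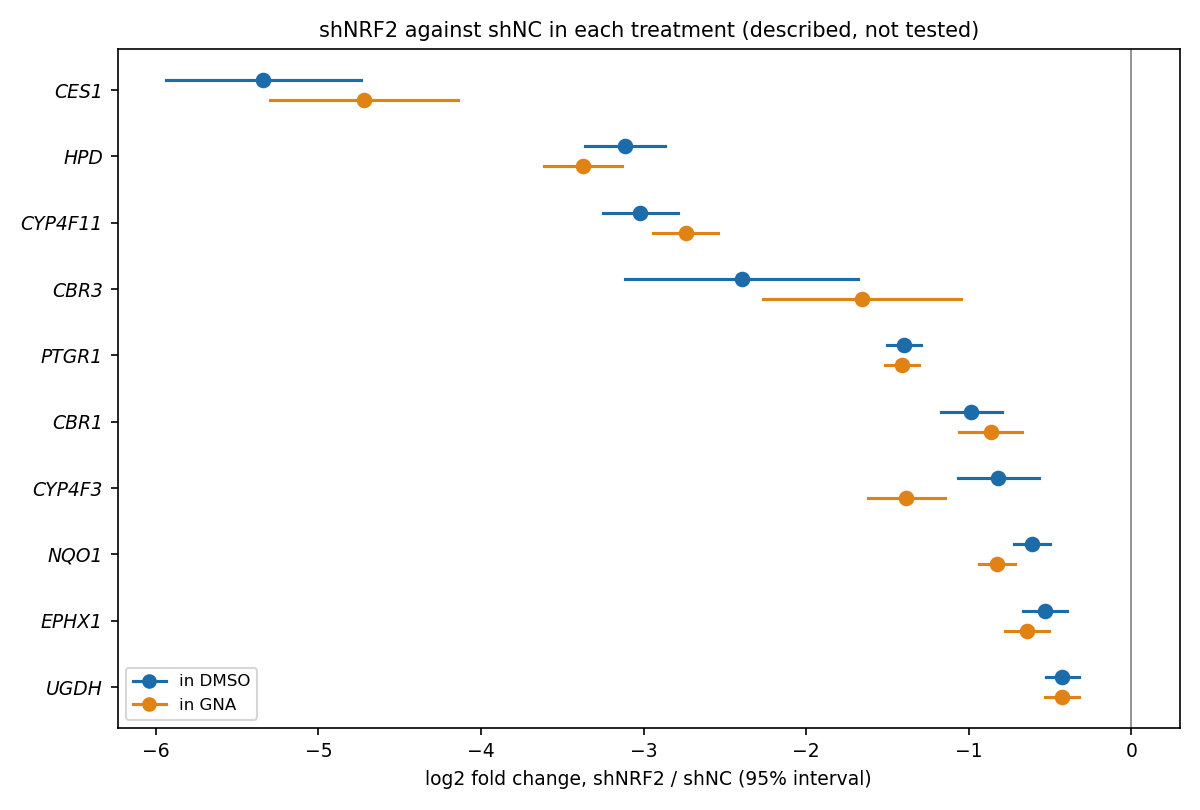
Log2 fold change of shNRF2 over shNC (x axis) with its 95% interval for the 10 genes in DMSO and in GNA; points are estimates from 3 libraries a group. Values run from -0.43 for UGDH to -5.34 for CES1 in DMSO, and the genes were chosen with these values known.

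CYP4F11 and CYP4F3 belong to a cluster of fatty acid and eicosanoid hydroxylases on chromosome 19. CYP4F11 hydroxylates long-chain fatty acids and clears vitamin K, and CYP4F3 inactivates leukotriene B4 in one of its forms. CYP4F11 lies at 15912367 to 15934867 on the minus strand and CYP4F3 at 15640897 to 15662825 on the plus strand, 249541 bases apart. CYP4F11 went from 53.2, 47.2 and 48.6 CPM with DMSO to 71.4, 86.8 and 78.8 with GNA in shNC, and from 6.62, 5.82 and 5.83 to 11.1, 11.7 and 12.6 in shNRF2. The 4 groups were separate, with GNA above DMSO in each line. It rose by 0.67 ± 0.075 (log2, edgeR adjusted p = 8.5e-08) in shNC and by 0.95 ± 0.12 (log2, edgeR adjusted p = 2.8e-07) in shNRF2. The difference of the responses, 0.28 ± 0.14 (log2, 95% interval -0.042 to 0.60, edgeR adjusted p = 0.27), was not called. Even with GNA the hairpin line reached only 11.8 CPM on average, against 49.7 in shNC with DMSO, and its share of the shNC level was 12.2% in DMSO and 14.9% in GNA.

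CYP4F3 was the gene of the 10 whose GNA response was called different between the lines. In shNC it had 24.4, 18.7 and 19.7 CPM with DMSO and 33.5, 31.6 and 31.3 with GNA, a rise of 0.62 ± 0.096 (log2, edgeR adjusted p = 1.4e-05). In the hairpin line it had 12.6, 11.0 and 11.9 CPM in DMSO and 11.1, 12.9 and 12.9 in GNA, overlapping ranges with a value of 0.054 ± 0.11 (log2, edgeR adjusted p = 0.76) and no call. The difference of responses was -0.57 ± 0.15 (log2, 95% interval -0.91 to -0.22, edgeR adjusted p = 0.02), so that shNRF2 held 56.5% of the control level in DMSO and 38.2% in GNA. Across the 10 genes this was 1 call of 10, beside 6.82% of all genes. The call ended when shNC DMSO replicate 2 was left out (adjusted p = 0.063) or 3 (0.059), without shNRF2 DMSO replicate 1 (0.069) and without shNRF2 GNA replicate 1 (0.068), with the same direction throughout. Of the 50-base stretches of CYP4F3, 8.64% occur in another gene, mostly in CYP4F2 (7.09%), which was at 0.267 CPM or less as a group mean. For CYP4F11 the share was 0.762%.

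UGDH, UDP-glucose dehydrogenase, makes UDP-glucuronic acid, the donor for glucuronide conjugation and for hyaluronan, and lies on chromosome 4 at 39498755 to 39528311, minus strand. In shNC the libraries held 412, 422 and 436 CPM with DMSO and 291, 291 and 295 with GNA, and in shNRF2 308, 312 and 325 with DMSO and 221, 212 and 218 with GNA. For this gene alone among the 10, shNC with GNA was below shNRF2 with DMSO, and no library crossed between any 2 neighbouring groups. UGDH fell with GNA, with -0.53 ± 0.044 (log2, edgeR adjusted p = 4.0e-10) in shNC and -0.54 ± 0.045 (log2, edgeR adjusted p = 2.5e-10) in shNRF2, the strongest falls of the 10 in each line. The difference, -0.0033 ± 0.063 (log2, 95% interval -0.15 to 0.14, edgeR adjusted p = 0.99), was not called. The hairpin line kept 74.5% in DMSO and 74.3% in GNA. UGDH-AS1, its antisense gene, had 1.69 to 7.09 CPM.

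HPD, 4-hydroxyphenylpyruvate dioxygenase, forms homogentisate in the breakdown of tyrosine and is best known from liver; it lies on chromosome 12 at 121839527 to 121863596, minus strand. The control line had 50.4, 56.5 and 55.4 CPM with DMSO and 64.9, 61.2 and 70.4 with GNA, and the hairpin line 5.52, 7.20 and 6.13 and 6.18, 7.41 and 5.36. HPD rose with GNA in shNC by 0.27 ± 0.081 (log2, edgeR adjusted p = 0.01), a call lost without shNC GNA replicate 3 (adjusted p = 0.082). In shNRF2 the 2 groups overlapped, with 0.015 ± 0.14 (log2, edgeR adjusted p = 0.95) and no call, and the responses differed by -0.26 ± 0.16 (log2, 95% interval -0.63 to 0.11, edgeR adjusted p = 0.39), also not called. The share left in shNRF2 was 11.6% in DMSO and 9.65% in GNA. Per length HPD was not separate from CBR1 in shNC DMSO (23.2 ± 1.22 and 21.8 ± 1.08 FPKM), and in shNRF2 DMSO it stood at 2.80 ± 0.386 FPKM, where CBR1 stood at 11.4 ± 0.873.

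In the comparison of the hairpin lines, 10 of 10 genes were lower in DMSO, beside 18.3% of all genes called lower, and 10 of 10 in GNA, beside 13.3%; these counts follow from the choice of the genes. The libraries of the 2 lines did not overlap for any of the 10, beside 43.2% of all genes in DMSO and 40.9% in GNA. In DMSO, CES1, HPD, CYP4F11 and CBR3 kept 2.43% to 19.0%, and the other 6 genes kept 37.9% to 74.5%. In GNA, CES1, HPD and CYP4F11 kept 3.68% to 14.9%, and CBR3 stood at 31.2%, next to PTGR1 (37.6%) and CYP4F3 (38.2%). The scarcest transcripts per length in shNRF2 DMSO were CES1 (0.170 ± 0.117 FPKM) and CBR3 (0.862 ± 0.117 FPKM), and the 3 most abundant, NQO1, PTGR1 and UGDH, were also the top 3 in shNC. The hairpin and the GNA comparisons share libraries, so their values are set side by side here and not correlated.

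**Figure D4:**
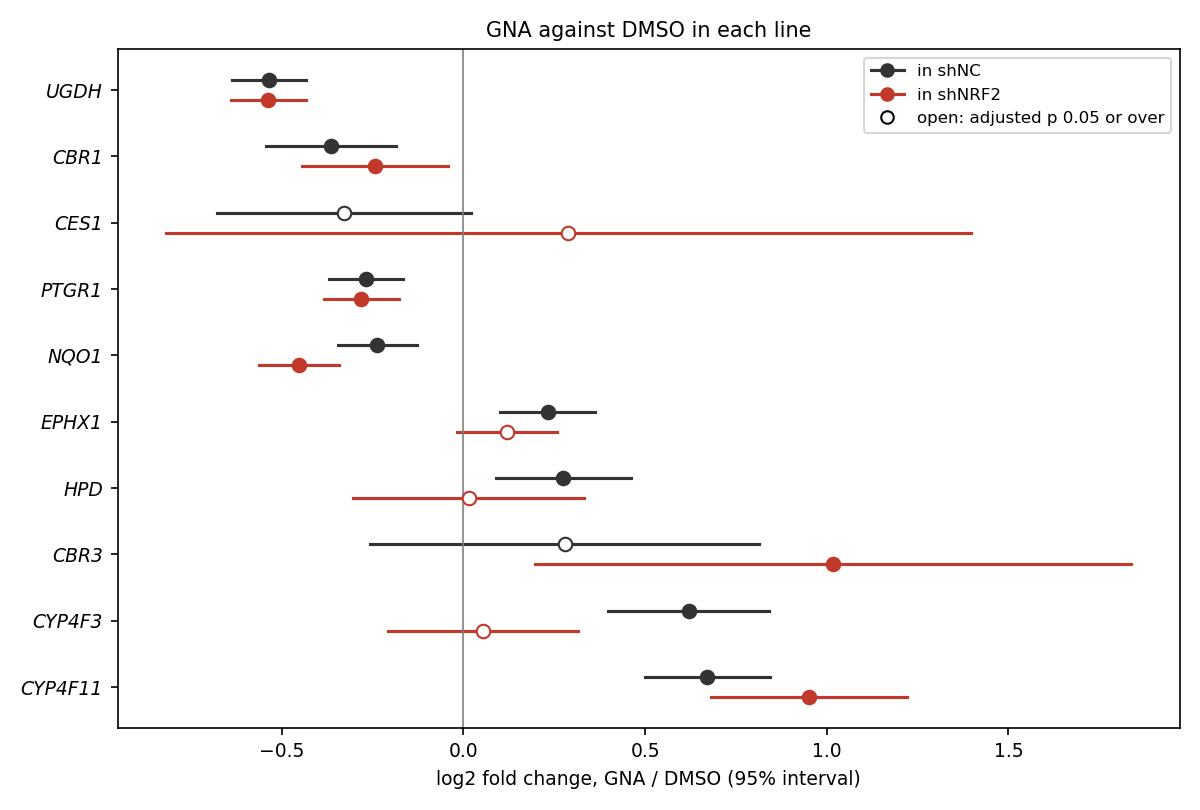
Log2 fold change of GNA over DMSO (x axis) with its 95% interval in shNC and in shNRF2; filled points had an edgeR adjusted p under 0.05. UGDH, CBR1, PTGR1 and NQO1 lie below 0 in both lines, CYP4F11 above 0 in both, and CYP4F3 at 0.62 in shNC and 0.054 in shNRF2.

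GNA did not move the 10 genes one way. In shNC, 4 rose (EPHX1, CYP4F11, CYP4F3 and HPD), 4 fell (NQO1, CBR1, PTGR1 and UGDH) and 2 were not called, beside 14.6% and 16.1% of all genes called higher and lower. In shNRF2, 2 rose (CBR3 and CYP4F11), the same 4 fell and 4 were not called, beside 16.7% and 17.0%. The median log2 change of the 10 was -0.0029 in shNC and 0.034 in shNRF2, against 0.017 and 0.0098 over all genes tested. In shNC the libraries of 9 of the 10 genes did not overlap between GNA and DMSO, beside 40.7% of all genes; in shNRF2 those of 5 did not, beside 44.9%. Summed CPM of the 6 epithelial markers ran from 16809 to 17837 in shNC DMSO and from 11208 to 11506 in shNC GNA. In shNRF2 the sum ran from 16489.9 to 16948 with DMSO and from 10524 to 11117 with GNA. KRT8, at 7430 to 13319 CPM over all libraries, was the largest part of it. The sum therefore does not show the direction of CDH1 (31.1 to 71.2 CPM) or EPCAM (1.99 to 3.60 CPM). The part of the shift of this sum in the results on GNA was not tested.

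The other genes of these pathways were read from lists that leave out the 10 genes. Their counts stand beside the shares of all genes called: with GNA 14.6% higher and 16.1% lower in shNC and 16.7% and 17.0% in shNRF2, and with the hairpin 16.8% higher and 18.3% lower in DMSO and 12.8% and 13.3% in GNA. Among 22 other quinone and carbonyl reductases, 8 rose (36.4%) and 2 fell (9.09%) with GNA in shNC, and 7 rose (31.8%) and 1 fell (4.55%) in shNRF2. In shNC the other settings gave 7 to 12 higher and 0 to 2 lower, with limma on FPKM calling none lower. NQO2, the sister of NQO1 that uses another cosubstrate, went the opposite way from NQO1: it rose from 33.1 ± 1.73 to 42.7 ± 1.75 CPM (mean ± SD, n = 3) in shNC and from 21.7 ± 0.852 to 40.3 ± 3.19 in shNRF2, by 0.37 ± 0.075 (log2, edgeR adjusted p = 3.6e-04) and 0.90 ± 0.079 (log2, edgeR adjusted p = 7.3e-10). BLVRB, biliverdin and flavin reductase, rose by 0.46 ± 0.065 (log2, edgeR adjusted p = 3.3e-06) and 0.92 ± 0.07 (log2, edgeR adjusted p = 3.6e-11). CYB5R1, a cytochrome b5 reductase, rose by 0.73 ± 0.14 and 1.44 ± 0.14. All 3 had a response that was called larger in shNRF2 (differences of 0.53 ± 0.11 (log2, edgeR adjusted p = 0.0031), 0.45 ± 0.095 (log2, edgeR adjusted p = 0.0034) and 0.71 ± 0.19 (log2, edgeR adjusted p = 0.024)). The CYB5R1 difference was not called without shNC DMSO replicate 2, shNC GNA replicate 2, shNRF2 DMSO replicate 3 or shNRF2 GNA replicate 1, and with limma on log2(FPKM + 0.1) (adjusted p = 0.060 to 0.078). CBR4, the mitochondrial carbonyl reductase, fell in both lines (-0.33 ± 0.10 and -0.48 ± 0.10); the call in shNC was lost with library totals, with limma on FPKM and when shNC DMSO replicate 3 or GNA replicate 2 of that line was left out. With the hairpin in DMSO 6 of the 22 were lower by edgeR's test, led by BLVRB (-0.89 ± 0.07), the quinone reductase TP53I3 (-0.77 ± 0.07) and NQO2 (-0.61 ± 0.08). None was called higher in DMSO by edgeR, DESeq2 or limma (1 at an unadjusted p under 0.05 in edgeR). In GNA 5 were lower and 1, CYB5R1, higher (0.57 ± 0.12). The list's median in DMSO was -0.14, against 0.011 over all genes tested.

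Of the other epoxide hydrolases and esterases, 12 of 15 were tested. With the hairpin in DMSO 6 were higher, and none was lower by edgeR, DESeq2 or limma (1 at an unadjusted p under 0.05 in edgeR), while in GNA 2 were higher and 1 lower (0 to 3 and 0 to 1 under the other settings). CES2, the intestinal-type carboxylesterase, was at 31.0 ± 3.97 CPM in shNC DMSO and 27.9 ± 2.38 in shNRF2 DMSO (-0.15 ± 0.094 (log2, edgeR adjusted p = 0.23), not called; called without shNC DMSO replicate 1, adjusted p = 0.037). It rose with GNA by 0.47 ± 0.09 in shNC and 0.43 ± 0.093 in shNRF2. CES3 was higher in the hairpin line in DMSO, by 0.77 ± 0.23, from 2.24 ± 0.452 to 3.81 ± 0.266 CPM, a call that ended when shNC DMSO replicate 2 was left out (adjusted p = 0.065). With GNA 4 of the 12 rose and 4 fell in shNC (2 to 4 each under the other settings), and 2 rose and 6 fell in shNRF2. BCHE, butyrylcholinesterase, fell in both (-0.48 ± 0.10 and -0.60 ± 0.1), and AADAC, an esterase of the endoplasmic reticulum, rose in both (0.68 ± 0.16 and 0.62 ± 0.17).

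Of 28 other cytochrome P450 genes of the CYP4 family and families 1 to 3, 13 were tested. With GNA 4 rose in shNC (2 to 6 under the other settings), where none fell by edgeR, DESeq2 or limma or at an unadjusted p under 0.05, and in shNRF2 5 rose (3 to 5) and 1 fell (0 to 1). CYP4V2, a fatty acid hydroxylase, rose by 0.71 ± 0.15 and 0.63 ± 0.15, and CYP2S1 by 0.55 ± 0.099 and 0.45 ± 0.10. With the hairpin 1 was lower in DMSO and 1 in GNA, in both cases CYP1B1 (-0.72 ± 0.10 and -0.97 ± 0.10), which oxidises polycyclic hydrocarbons, while 3 and 2 were higher (1 to 3 in each under the other settings). Within the CYP4F cluster, CYP4F12 stood at 3.21 ± 0.899 CPM in shNC DMSO and 2.26 ± 0.241 in shNRF2 DMSO and was called in none of the 5 comparisons by edgeR's test; without shNRF2 GNA replicate 3 its hairpin difference in GNA was called (adjusted p = 0.042). CYP4F2, CYP4F8 and CYP4F22 had group means of 0.267 CPM or less.

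Of genes of UDP-glucuronic acid supply and use, 7 of the 15 tested fell with GNA in shNC (46.7%, beside 16.1% of all genes) and 4 in shNRF2 (26.7%, beside 17.0%). None rose in either line by edgeR, DESeq2 or limma, or at an unadjusted p under 0.05 in edgeR. The 7 became 4 to 7 under the other settings, with 4 for limma on log2(FPKM + 0.1). UGP2, which makes the UDP-glucose that UGDH oxidises, fell from 140.3 ± 8.02 to 111 ± 3.97 CPM in shNC (-0.34 ± 0.057) and from 116 ± 3.16 to 92.7 ± 5.48 in shNRF2 (-0.32 ± 0.058), and it was lower in the hairpin line in DMSO (-0.27 ± 0.057) and GNA (-0.25 ± 0.058). HAS3, a hyaluronan synthase that uses the product of UGDH, fell too (-0.50 ± 0.15 and -0.61 ± 0.15); the call in shNC was lost with limma on FPKM and when shNC DMSO replicate 2 or GNA replicate 1 of that line was left out. UGT1A7 fell in both lines (-0.50 ± 0.067 and -0.83 ± 0.068), but the UGT1A genes share exons and their counts are uncertain. Other UGT1A genes are among the 15, such as UGT1A9, at 7.01 CPM with DMSO and 3.55 with GNA in shNC. The counts and medians of this list therefore do not stand for separate genes throughout. With the hairpin 5 of the 15 were lower and 3 higher in DMSO (3 to 5 and 1 to 3 under the other settings), and 4 lower and 2 higher in GNA. The list's median with GNA was -0.23 in shNC and -0.25 in shNRF2.

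In the tyrosine pathway around HPD, 7 of 10 other genes were tested. HGD, which opens the homogentisate that HPD forms, was lower in the hairpin line, at 59.4 ± 3.59 CPM in shNC DMSO and 37.7 ± 1.64 in shNRF2 DMSO (-0.66 ± 0.071 (log2, edgeR adjusted p = 4.3e-08)), and at 49.5 ± 3.46 and 29.1 ± 0.843 in GNA (-0.77 ± 0.073 (log2, edgeR adjusted p = 5.6e-09)). Its fall with GNA was called in both lines (-0.26 ± 0.069 and -0.37 ± 0.075), the first lost with library totals as the scale (adjusted p = 0.072) and with limma on FPKM. QDPR, which recycles the cofactor tetrahydrobiopterin, was lower in shNRF2 as well (-0.43 ± 0.094 in DMSO and -0.29 ± 0.094 in GNA; the second was lost with limma on FPKM and without shNC GNA replicate 1, shNRF2 GNA replicate 1 or shNRF2 GNA replicate 2). TAT, the aminotransferase directly ahead of HPD, had group means of 0.0470 CPM or less. In all, 2 of the 7 were lower with the hairpin in DMSO and 3 in GNA. None was higher in either by edgeR, DESeq2 or limma, or at an unadjusted p under 0.05 in edgeR.

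Among 9 tested regulators, the small MAF genes that partner NRF2 rose with GNA in both lines. MAFF rose by 1.08 ± 0.09 in shNC and 1.57 ± 0.09 in shNRF2, MAFG by 0.25 ± 0.066 and 0.65 ± 0.069, and MAFK by 0.65 ± 0.062 and 0.77 ± 0.061. In total, 4 regulators rose in shNC and 3 in shNRF2, and none fell in either line by edgeR, DESeq2 or limma (1 in each at an unadjusted p under 0.05 in edgeR). With the hairpin in DMSO 4 of the 9, NFE2L2 among them, were lower and 2 higher, beside 18.3% and 16.8% of all genes. In GNA 3 were lower and 2 higher, beside 13.3% and 12.8%. With DMSO, MAFG stood at 51.0 ± 0.822 CPM in shNC and 35.8 ± 2.89 in shNRF2 (mean ± SD, n = 3). MAFK stood at 109 ± 9.86 and 129 ± 6.73, and MAFF at 13.7 ± 0.809 and 13.1 ± 1.53.

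**Figure D5:**
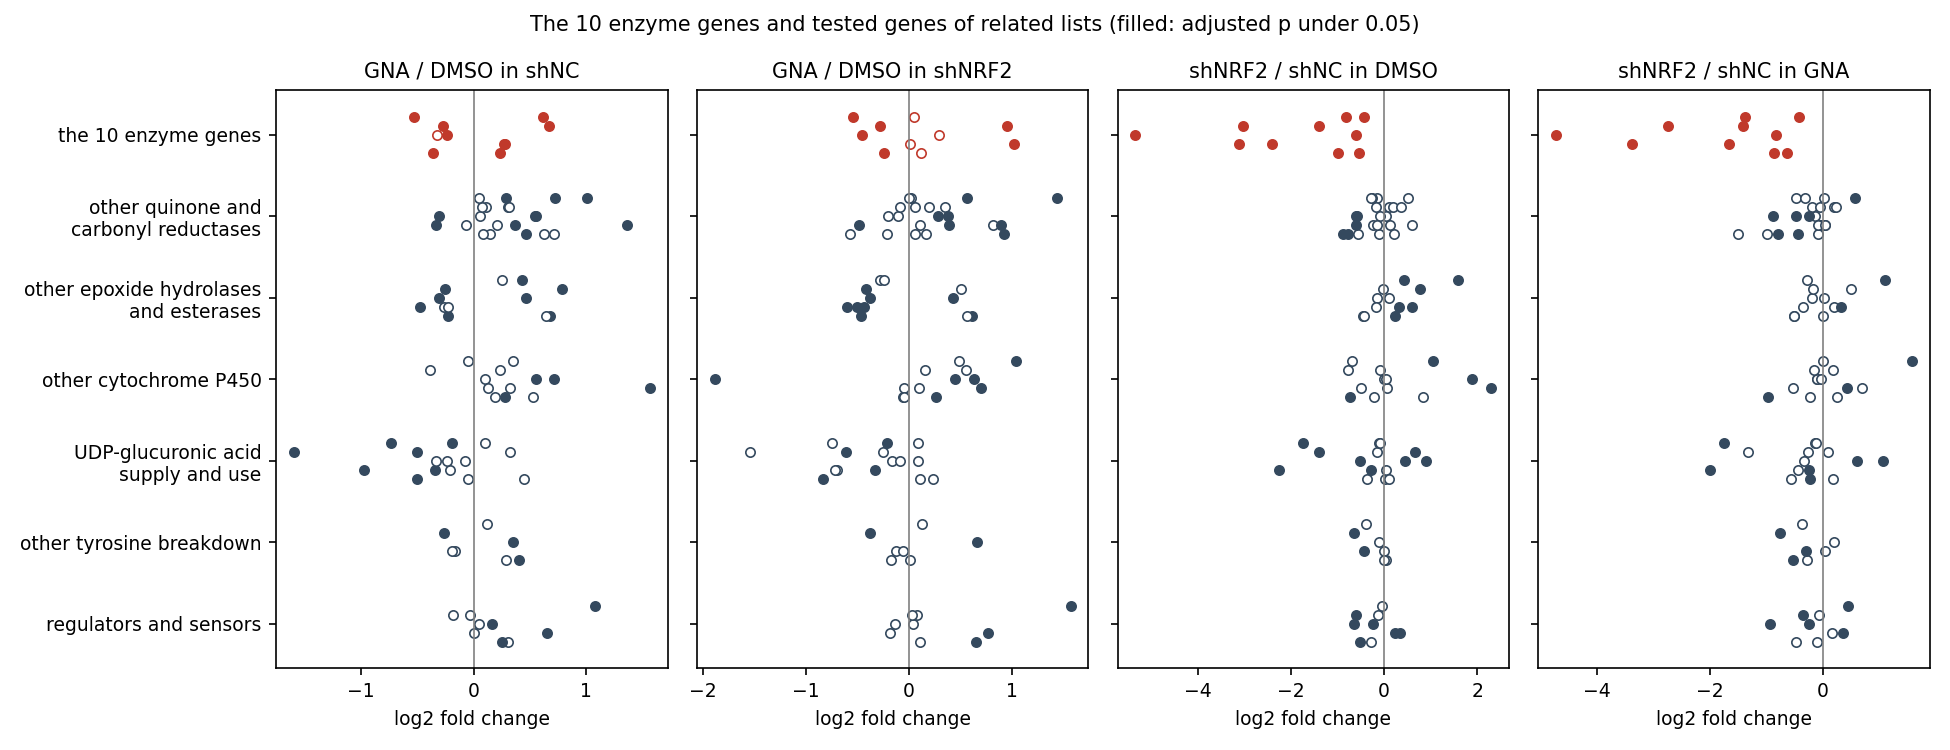
Log2 fold change (x axis, a scale per panel) of the 10 genes (red) and of the tested genes of 6 related lists (dark) in 4 comparisons; filled points had an edgeR adjusted p under 0.05. In the panels of the hairpin the 10 genes lie to the left of 0, as they were chosen. Each of the other lists has points on both sides, though the tyrosine list in DMSO reaches only 0.045.

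The 10 genes were also compared by their profile over the 12 libraries. The measure was the root mean square difference of log2 CPM after each gene was centred on its mean. Profiles were not scaled, so it takes in the size of the changes, the hairpin difference among them, as well as their shape. The closest pairs were NQO1 with CBR1 (0.151), NQO1 with UGDH (0.186) and CBR1 with PTGR1 (0.255). CES1 and UGDH, whose log2 CPM spanned 6.23 and 1.04 over the libraries, were the farthest apart (2.30). The neighbours CBR1 and CBR3 differed by 0.745 and the 2 CYP4F genes by 0.944, whereas CYP4F11 and HPD differed by 0.446. Among 9995 other genes with a mean of at least 5 CPM, the profiles most like NQO1 were those of SLC7A7 (0.0738), LBH (0.0825), HGD (0.0853), CTSB (0.0892) and LIMA1 (0.0908). Those most like CYP4F11 included ENSG00000267056 (0.318), SPP1 (0.388), F2RL2 (0.454) and NAMPTP1 (0.529). GENCODE 29 places ENSG00000267056, a processed pseudogene, on the same strand as CYP4F11 and 542 bases past its end, on chromosome 19 at 15910582 to 15911824. Counts of that pseudogene and of CYP4F11 transcripts that run past its end cannot be told apart. The libraries, their depth and the groups are shared by all these profiles.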

How the data were processed

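RNA sequencing of total RNA gave 12 libraries, 3 in each of 4 groups, mapped to their groups by title. The authors deposited a table of raw read counts and a table of FPKM values for the same 61510 genes. The submitters' processing notes name the GRCh38 build and DESeq2 with no role or version; the sources used here do not give the aligner, the counter, its strand setting or its annotation. FPKM as deposited equalled counts divided by the library total and a fixed length per gene in 11620 of 11620 genes with at least 20 counts in each library (relative tolerance 0.001), so they carry no further information; they were used to compare levels between genes. The single-cell data named in the series description were not analysed here.

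Genes were filtered with filterByExpr (minimum count 10, minimum total 15), which left 15653 genes with 99.8% of the counts. Counts were scaled by TMM and tested by the quasi-likelihood method of edgeR 4.0.16 (R 4.3.3, glmQLFit, glmQLFTest) in 1 fit over all 12 libraries with 1 coefficient per group, and p-values were adjusted by Benjamini-Hochberg over the genes tested in each of 5 comparisons. SE is the log2 fold change divided by the square root of F, and 95% intervals use 8 degrees of freedom. Two-sided exact permutation tests of 3 against 3 libraries cannot go below p = 0.1 and were not used. Alternatives were DESeq2 size factors, library totals, DESeq2 1.42.0, limma 3.58.1 on FPKM (log2, offset 1 or 0.1), tests of every counted gene or of those at 1 CPM in 3 libraries, a block on replicate number, fits on just the compared groups, and fits without 1 library.

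The 10 genes, the related lists and the tests were chosen with earlier results of these data known. Named list genes were up to 3 called each way per list and comparison with at least 5 CPM in the higher group, all CYP4F and CES genes and overlapping genes; a part of these is printed, chosen after their values were seen. Lists are described by counts and medians, with no test. Positions are from GENCODE 29 (GRCh38); promoter windows are RefSeq, GRCh38.p14. Results on some items withheld for evaluation are not reported here.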

Additional observations from a re-analysis of the deposited data

Results flagged for a closer look

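CYP4F3 was the one enzyme gene of the 10 whose GNA response was called different between the lines, at -0.57 ± 0.15 on the log2 scale (edgeR adjusted p = 0.02). Among the related genes, the response was larger in shNRF2 for CYB5R1 (by 0.71 ± 0.19, adjusted p = 0.024), NQO2 (by 0.53 ± 0.11, adjusted p = 0.0031), MAFF (by 0.49 ± 0.13, adjusted p = 0.02), BLVRB (by 0.45 ± 0.095, adjusted p = 0.0034) and MAFG (by 0.40 ± 0.096, adjusted p = 0.01). The difference was in the other direction for EPHX2 (-0.71 ± 0.21, adjusted p = 0.043), UGT1A7 (-0.33 ± 0.095, adjusted p = 0.035), NFE2L2 (-0.30 ± 0.09, adjusted p = 0.045) and PON2 (-0.24 ± 0.067, adjusted p = 0.03). Those 4 calls were lost under 14, 10, 13 and 9 of 20 other settings in the same order, and the MAFF call under 3. NQO2, BLVRB and MAFG stayed called under all 20.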

How the results depend on the processing

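Over 30 values of the 10 genes (2 GNA comparisons and their difference), 21 settings at most and 620 pairs of a value and a setting, 577 kept direction and side of the threshold, 15 lost a call, 15 gained one and 13 turned direction. In the hairpin comparisons, which carry no test, 19 pairs moved by more than the SD between libraries with the same sign (limma on FPKM or library totals). In the 13 that turned, the value was not called. They were CES1 with GNA in shNRF2 without shNRF2 DMSO replicate 3 (-0.10) or GNA replicate 2 (-0.30; range without 1 library -0.30 to 0.81), HPD in the same comparison without shNRF2 DMSO replicate 1 (-0.077) or GNA replicate 2 (-0.12; range -0.12 to 0.13), CYP4F11 for the difference of responses with limma on log2(FPKM + 1) (-0.017), and, for the same difference, PTGR1 without 1 of 3 libraries (range -0.045 to 0.018) and UGDH without 1 of 5 (-0.023 to 0.021). CYP4F12, not called, turned with GNA in shNC without shNC DMSO replicate 2 (range -0.041 to 0.36) and in shNRF2 without shNRF2 GNA replicate 3 (range -0.17 to 0.25). The cause of these was not tested.

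For the difference of responses, 1 of the 10 genes was called. It was 2 (NQO1 in addition) with DESeq2 size factors, library totals, no filter, the 1 CPM filter, DESeq2 and limma at both offsets. Leaving out 1 library gave 0 to 1, and the gene called was NQO1 and not CYP4F3 in a fit of this kind. The same calls without 1 library were 8 to 8 for GNA in shNC and 4 to 7 for GNA in shNRF2. Library totals moved the median of all genes from 0.017 to 0.10 for GNA in shNC. They moved the split of calls there from 2284 higher and 2526 lower to 3543 and 1542. For GNA in shNRF2 the split went from 2617 and 2657 to 3356 and 2091. For the hairpin in DMSO it went from 2636 and 2872 to 3226 and 2266, and for the difference from 561 and 507 to 414 and 674. Limma on FPKM shifted the first split likewise (3064 and 1430). It called 657 and 603 genes for the difference, against 1068. Of 60 list counts 44 moved by at most 1 and the largest move was 4. Fits of only the groups compared give no value for the difference.

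Replicate numbers are shared by the groups, but the residuals of 0 of 18 same-numbered pairs correlated over 0.1, and 2 of 12 libraries were closest to one of their own number, so they share only a number. With replicate number as a block the calls among the 10 genes were 8 for GNA in shNC, 6 for GNA in shNRF2 and 1 for the difference, as without it, and over all genes the difference of responses had 915. CES1 with 2 to 16 counts and CBR3 with 11 to 37 counts a library in shNRF2 limit what the GNA comparison can detect there. A planned alignment of protein sequences was not run.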
